A study of Sus scrofa with 48 samples.

Results

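Glycolytic enzyme transcripts were examined in pig perirenal adipose tissue (PRAT), the fat around the kidney, for 10 genes listed in the order of their reactions: HK2, GPI, ALDOA, TPI1, GAPDH, PGK1, PGAM1, ENO1, ENO3 and PKM2. A probe was taken as a member when the gene name in the scanner files was one of these symbols, and pyruvate kinase PKM carries its older name PKM2 there. No probe carried the name PGAM1, so 9 of the 10 genes were measured, through 33 of the 60305 distinct probes on the array. Of these 33 probes, 32 passed a filter on dim probes (well above background on at least 12 of the 48 arrays, whatever their group), and all 9 genes kept at least 1 probe, among 9736 named genes that did. The remaining probe, 1 of the GPI probes, was well above background on 0 arrays.

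Glycolysis splits glucose into pyruvate in the cytosol. In its first phase hexokinase traps glucose in the cell and ATP is spent to make sugar phosphates that aldolase cuts into triose phosphates; in its second phase the trioses are oxidised and ATP is regained. In fat cells the pathway supplies glycerol phosphate to build triglycerides and pyruvate for the synthesis of fatty acids, and HK2 is the insulin-responsive hexokinase of adipose tissue and muscle.

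The 48 pigs were castrated males of the Large White breed of lines bred apart for residual feed intake, the feed eaten beyond what growth and upkeep predict. The labels call the efficient line RFIneg (here low RFI) and the other RFIpl (here high RFI). Pigs of both lines had free access to feed that was rich in fat and fiber (HF) or poor in both and based on starch (LF), and tissue was taken at 132 days of age by the labels. Each combination of diet and line held 12 pigs, and each pig had 1 one-colour array. The diets differed in fat, fiber and starch together, so effects of these nutrients cannot be told apart. The study also reports that HF pigs ate less, weighed less at the end and had relatively less perirenal fat. Effects of these differences cannot be told apart from those of the nutrients here. The tissue was measured whole, so fewer cells of a type and less RNA per cell cannot be told apart either.

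Per array, between 38875 and 47814 spots were well above background, the median signal lay between 115.0 and 178.0 intensity units, and no spot of the enzymes was saturated. Precision is limited by how many arrays there were. With 2 arrays of each group on each of the 6 slides, slide and scan day (2 days) were balanced over diet and line. Adipocyte markers were abundant on every array, as their summed level of 12.24 to 12.72 (log2, relative to the array median) shows. On 6 arrays the fast skeletal muscle transcripts MYLPF and TNNT3 stood more than 1.5 log2 units above their median over all arrays. These arrays were 2 of the HF low RFI group, 1 of the HF high RFI group, 1 of the LF low RFI group and 2 of the LF high RFI group, and the ENO3 results and the line call of FBP2 are also given without them.

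The array measures each gene through 60-base probes, and the sequences below, as given in the scanner files, show what was read for aldolase A, for the GAPDH probe with the larger diet difference and for the enolases. The ENO1 and ENO3 probes were compared with each other only, and not with the transcripts. Probes from different places of similar transcripts can share only short runs. Whether the ubiquitous and the muscle enolase were read apart was therefore not tested. The longest run of bases that the ENO1 probe shared with any ENO3 probe was 8 bases, whereas the ENO3 probes A_72_P641194 and A_72_P637644 shared the 41 bases written in capitals and therefore do not sample different parts of the transcript.
ALDOA O7417: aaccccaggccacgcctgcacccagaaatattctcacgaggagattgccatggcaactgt
GAPDH A_72_P321038: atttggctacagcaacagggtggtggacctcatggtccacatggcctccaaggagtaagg
ENO1 O15015: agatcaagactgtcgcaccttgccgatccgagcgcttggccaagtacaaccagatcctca
ENO3 A_72_P641194: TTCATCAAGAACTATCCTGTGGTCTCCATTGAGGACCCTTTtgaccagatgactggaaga
ENO3 A_72_P637644: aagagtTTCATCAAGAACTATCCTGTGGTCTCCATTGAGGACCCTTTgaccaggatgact

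Diet was compared first, with the question of which steps of the pathway differed when starch gave way to fat and fiber. Transcripts of 8 of the 9 measured enzymes were lower in HF pigs, at every measured step from hexokinase to pyruvate kinase, and none was higher. The exception by its brightest probe was ENO3, the enolase of muscle. The fall was largest for HK2, which was 1.73-fold lower, followed by ALDOA at 1.39-fold, and smallest for GPI at 1.15-fold and TPI1 at 1.16-fold. These are calls of limma over all 45749 tested probes (raw p under 0.01, fold over 1.1 and Benjamini-Hochberg adjusted p, BH p, under 0.08) for the brightest probe of each gene; by the same rule 14.0% of all probes were called as lower and 22.2% in either direction. The median difference over the 9 enzymes was -0.35 (log2, HF minus LF), beside -0.02 over all tested probes. Values are log2 signals relative to the median of the array, so each difference is relative to the typical probe. Centring on spike-in controls instead moved every difference up by 0.15 and left 3 enzymes called, HK2, ALDOA and PGK1. With spike-ins 850 of the 45749 probes were called as lower.

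**Figure D1:**
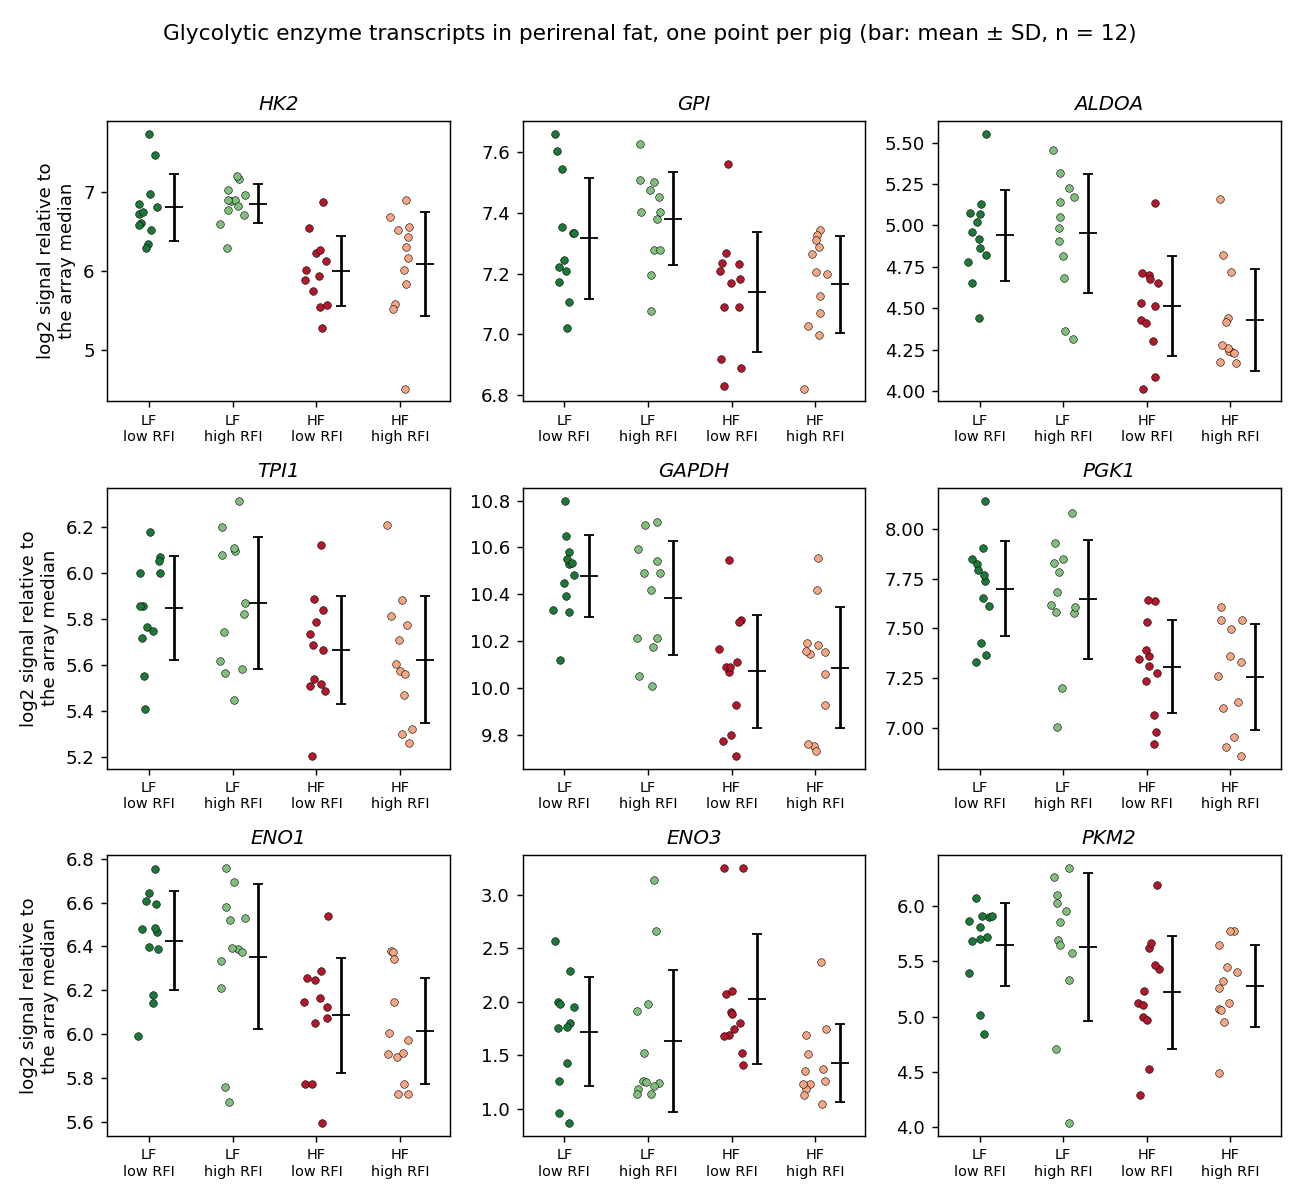
Log2 signal relative to the array median (y axis) of the brightest probe of each of the 9 measured enzymes in LF and HF pigs of the low RFI and high RFI lines (x axis), with 1 point per pig and the mean ± SD of 12 pigs beside each group. The means of both HF groups lie below those of both LF groups for every enzyme but ENO3, with overlap between single pigs.

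In the first phase of the pathway, HK2, which phosphorylates glucose, ran from 4.51 through a median of 6.07 to 6.91 in HF pigs and from 6.29 through 6.82 to 7.75 in LF pigs (log2 signal, n = 24 per diet). The difference was -0.79 (standard error 0.13, limma BH p = 1.89e-05), and 16 HF pigs had less than any LF pig. GPI, which turns glucose phosphate into fructose phosphate, had a median of 7.19 (6.82 to 7.56) in HF pigs and 7.34 (7.02 to 7.66) in LF pigs. The diets overlapped widely for GPI although 23 HF pigs had values under the LF mean, and the difference was -0.20 (standard error 0.05, limma BH p = 0.00387). ALDOA, which cleaves fructose bisphosphate, had a median of 4.42 (4.01 to 5.16) in HF pigs and 4.97 (4.31 to 5.56) in LF pigs. Its difference was -0.48 (standard error 0.09, limma BH p = 8.66e-05), and 10 HF pigs lay below every LF pig. TPI1, which interconverts the triose phosphates, had a median of 5.63 (5.20 to 6.21) in HF pigs and 5.86 (5.41 to 6.31) in LF pigs. This difference, -0.22 (standard error 0.07, limma BH p = 0.0234), was close to the SD of 0.25 between pigs of 1 diet.

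In the second phase, GAPDH, which oxidises the trioses, had a median of 10.10 (9.71 to 10.55) in HF pigs and 10.49 (10.01 to 10.80) in LF pigs, and 22 HF pigs had values under the LF mean. For GAPDH the difference was -0.35 (standard error 0.07, limma BH p = 9.93e-05). PGK1, which makes the first ATP of this phase, had a median of 7.32 (6.86 to 7.64) in HF pigs and 7.71 (7.003 to 8.14) in LF pigs. The LF mean of PGK1 was above each of the 24 HF pigs, and 14 LF pigs lay above every HF pig, for a difference of -0.39 (standard error 0.07, limma BH p = 0.000113). ENO1, the enolase of most tissues, had a median of 6.06 (5.59 to 6.54) in HF pigs and 6.43 (5.69 to 6.76) in LF pigs, and the diets differed by -0.34 (standard error 0.08, limma BH p = 0.000794). PKM2, which forms pyruvate, was scattered (SD 0.44 in HF pigs and 0.53 in LF pigs), with a median of 5.24 (4.29 to 6.19) in HF pigs and 5.76 (4.04 to 6.34) in LF pigs. Its difference of -0.39 had a standard error of 0.14 (limma BH p = 0.0308), and no HF pig lay below every LF pig. ENO3 did not pass the test, at 0.05 (standard error 0.15, limma BH p = 0.843), with a median of 1.69 (1.04 to 3.25) in HF pigs and 1.64 (0.86 to 3.14) in LF pigs.

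The calls held on the slides one by one to different degrees. HK2, GPI, ALDOA, GAPDH, PGK1 and ENO1 were lower in HF pigs on each of the 6 slides, with HK2 between -1.42 and -0.26 and PGK1 between -0.66 and -0.04 per slide (mean of 4 HF arrays minus mean of 4 LF arrays). TPI1 was lower on 5 slides and PKM2 on 4. Within the 24 arrays of the first scan day 6 enzymes were called (without TPI1 and PKM2), where 7.67% of all probes were called as lower, and within those of the second day 3 were (HK2, ALDOA and GAPDH), where 8.01% were, while all 8 that fell over both days had differences below 0 on each day. HK2 was -0.76 on the first day and -0.81 on the second.

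Several genes were read by more than 1 probe, and the probes of a gene mostly gave like differences. All 7 PGK1 probes were called as lower, from -0.41 to -0.35, and both HK2 probes were, at -0.79 and -0.67. For TPI1, 4 of 6 probes were called and the 6 differences lay between -0.22 and -0.17, and for GPI 3 of 4 were called between -0.20 and -0.11. PKM2 was called through 2 of its 5 probes only, although all 5 differences lay between -0.49 and -0.33 and the largest BH p was 0.0841. Of the 32 probes, 22 were called as lower, and none was called as higher. The GAPDH probes disagreed in size, with -0.35 for the brighter and -0.55 for A_72_P321038. The dimmer probe stood 1.36 ± 0.17 (SD, n = 24) below the brighter one in HF pigs and 1.16 ± 0.11 in LF pigs (log2), and this gap differed between diets by -0.20 (two-sided permutation test, diets shuffled within lines, p = 1e-05, the smallest that 100000 resamples can give).

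**Figure D2:**
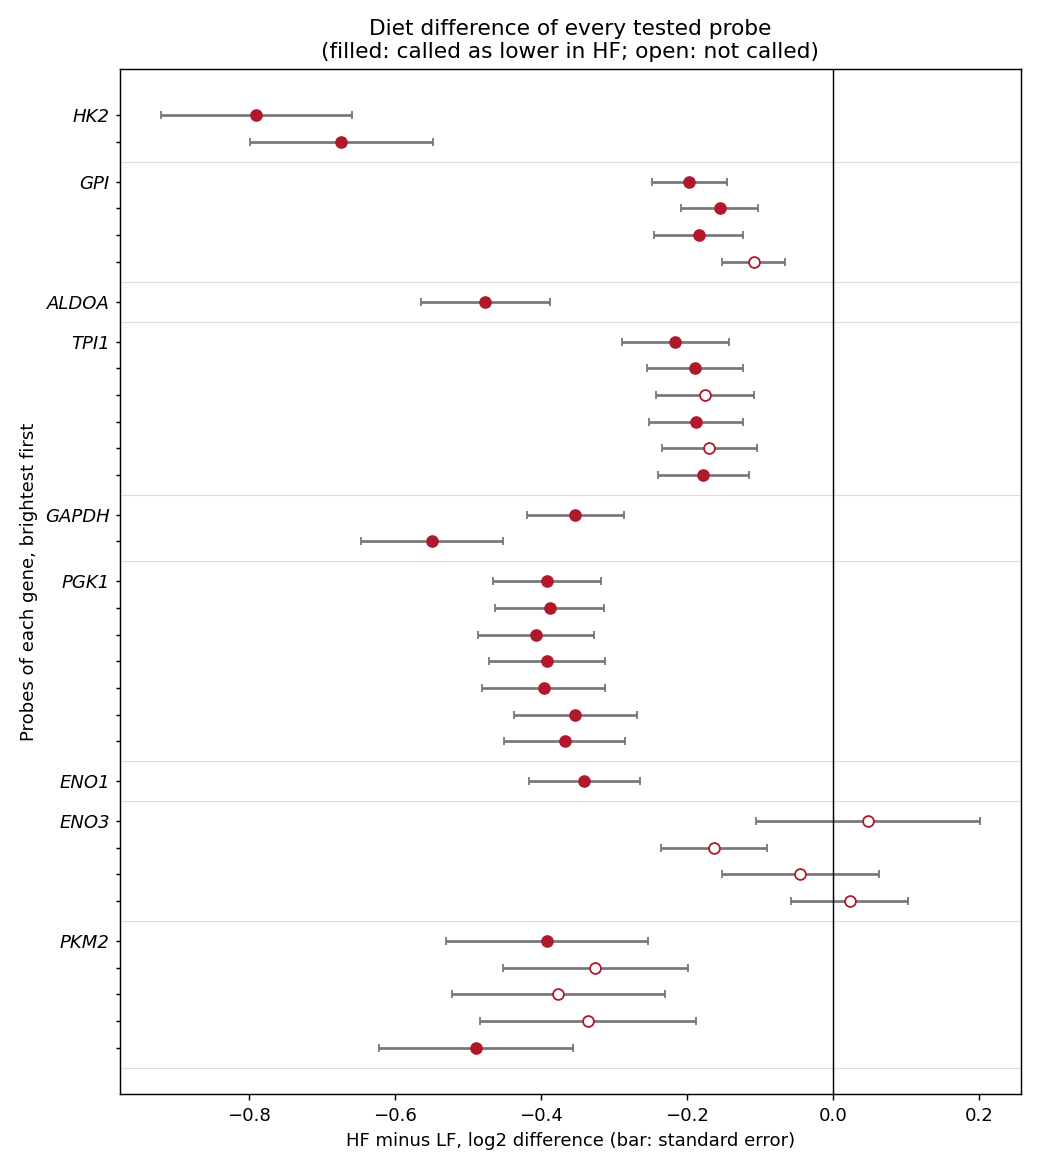
Difference between diets (HF minus LF, log2, x axis) with its standard error for each of the 32 tested probes, grouped by gene in pathway order (y axis) with the brightest probe of a gene first. Filled points were called as lower in HF pigs; the HK2 probes lie farthest below 0 and the 4 ENO3 probes around 0.

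Repeated spots on the same array give the noise of a single spot, which leaves out that of extraction, labelling and hybridisation. A pair of TPI1 probes carried the same 60 bases, and across the 48 arrays the difference between them had an SD of 0.08, against an SD of 0.23 between pigs of a group for 1 of them. Their diet differences were -0.17 and -0.19, and only 1 of the pair was called. The brightest GPI probe had such a twin too, a spot with no gene name, with an SD of 0.08 for the difference between spots against 0.17 between pigs, and diet differences of -0.20 and -0.18. A probe named TC565418 carried the reverse complement of 46 bases of the paired TPI1 probes and was well above background on all 48 arrays, with a mean of 0.92 and a diet difference of -0.15; whether it read a transcript of the opposite strand was not tested.

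Each line was then taken by itself. In the low RFI line 5 enzymes were called as lower in HF pigs (HK2, ALDOA, GAPDH, PGK1 and ENO1), and in the high RFI line these and GPI were; of all tested probes 7.73% were called as lower in the low RFI line and 9.31% in the high RFI line. The differences were close between lines. HK2 was -0.81 in the low RFI line and -0.77 in the high RFI line (standard error 0.19 each), PGK1 was -0.39 in both (0.10 each), and ENO1 was -0.34 in both (0.11 each). GAPDH was -0.41 and -0.30 (0.09 each), and ALDOA was -0.43 and -0.52 (0.12 each). TPI1 at -0.18 and -0.25 and PKM2 at -0.43 and -0.35 did not pass the test in either line with 12 pigs per diet. By limma no enzyme had an interaction of diet and line, against 0 of all tested probes (0%), and by the two-way ANOVA of the study's methods none had 1 either. Of the 32 probes, 1 had an unadjusted interaction p under 0.05, where 1076 of all 45749 tested probes had one. It was the ENO3 probe A_72_P641194 (0.31, standard error 0.15, limma raw p = 0.0373). Without the 6 arrays high in muscle transcripts its interaction was 0.16 (limma raw p = 0.203). This probe was also called as lower in HF pigs of the high RFI line (-0.32, limma BH p = 0.0378), which the brightest ENO3 probe was not. The interaction of the brightest ENO3 probe was 0.52 (standard error 0.31) with all arrays and 0.18 (0.19) without the 6. Leaving out ENO3, the interaction of the brightest probes lay between -0.11 for GAPDH and 0.09 for ALDOA, with standard errors of 0.13 and 0.18, and intervals of this width do not show that the lines responded alike.

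**Figure D3:**
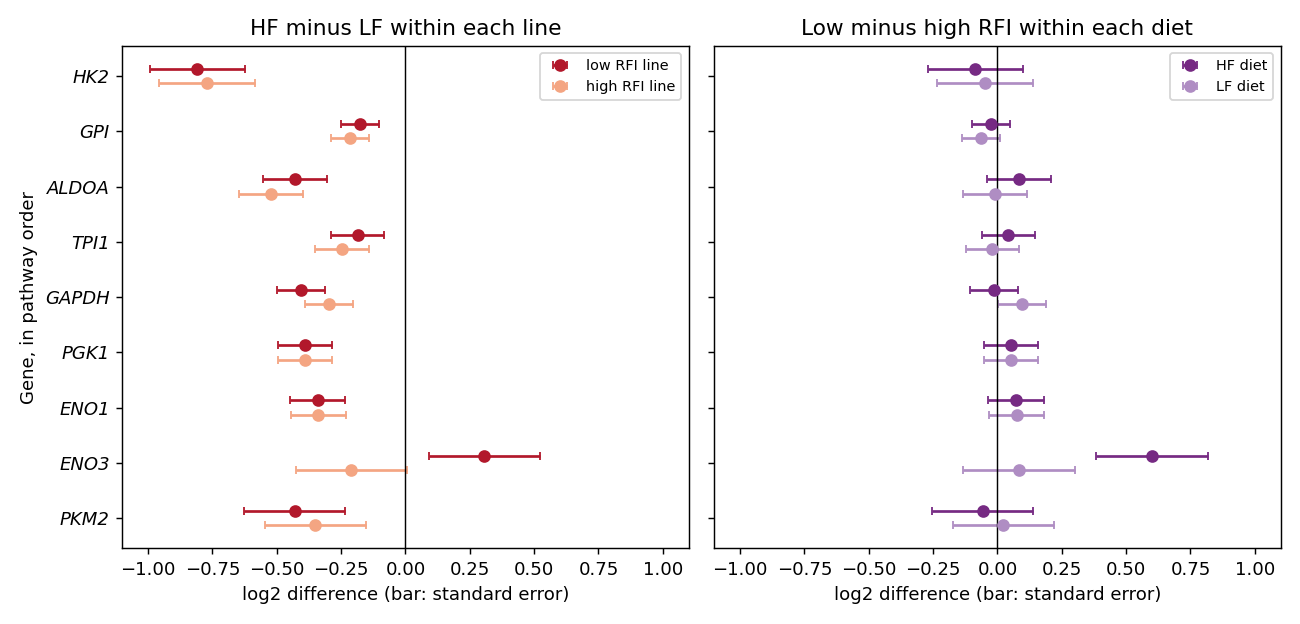
Left, difference between diets (HF minus LF) in each line, and right, difference between lines (low minus high RFI) in each diet, as log2 differences with standard errors (x axes) for the brightest probe of the 9 enzymes (y axis). Diet differences lie below 0 in both lines for every enzyme but ENO3, and line differences lie near 0 except for ENO3 in HF pigs.

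No enzyme was called between the lines by limma or by the two-way ANOVA, where 3.22% of all tested probes were called by limma, and none was called within the HF diet (0.887% of all probes) or within the LF diet (0.393%). The line differences of the brightest probes (low minus high RFI) lay between -0.07 for HK2 and 0.07 for ENO1, leaving out ENO3. All 4 probes with an unadjusted limma p under 0.05 for line were ENO3 probes, where 5631 of all 45749 tested probes had one. The 4 with one within the HF diet were ENO3 probes too, where 4330 of all probes had one. Within the LF diet 0 probes of the enzymes had one, where 2980 of all probes did. The 4 ENO3 probes read the same gene, so they do not count as independent results.

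ENO3, the enolase of skeletal muscle and heart, is described group by group because no other enzyme had an unadjusted limma p under 0.05 for line. It ran from 1.41 through a median of 1.84 to 3.25 in HF low RFI pigs and from 1.04 through 1.30 to 2.37 in HF high RFI pigs. It ran from 0.86 through 1.79 to 2.57 in LF low RFI pigs and from 1.13 through 1.25 to 3.14 in LF high RFI pigs. The medians of both low RFI groups were thus above those of both high RFI groups, while the ranges overlapped, and 11 of the 12 HF low RFI pigs lay above the HF high RFI mean. The difference between lines was 0.34 (standard error 0.15, limma raw p = 0.0301, BH p = 0.318), with 0.60 (standard error 0.22, BH p = 0.258) in HF pigs and 0.08 (0.22) in LF pigs, and the other ENO3 probes gave 0.18 to 0.24 for line.

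The 6 arrays with high fast muscle transcripts were also the 6 arrays with the highest ENO3. ENO3 lay between 2.37 and 3.25 there and between 0.86 and 2.29 on the other 42 arrays, and MYLPF, a light chain of fast muscle myosin, lay between 3.36 and 4.36 there and between 0.88 and 1.87 elsewhere. PGAM2, the muscle partner of the unmeasured PGAM1, had a median of 0.45 on these arrays and of -1.54 on the others, but was well above background on only 19 of the 48 arrays, so the lower value is largely background. Without the 6 arrays, an alternative chosen after seeing the data, the ENO3 line difference was 0.35 (standard error 0.10, limma BH p = 0.04). ENO3 was then called as higher in low RFI pigs, where 1.44% of all probes were. Leaving out the arrays with the highest ENO3 narrows its spread (standard error 0.15 with all arrays), so this call is a description. The ENO3 line differences within each diet were then 0.44 (standard error 0.14, limma BH p = 0.168) in HF pigs and 0.26 (0.14, BH p = 0.76) in LF pigs. Of the other 3 probes, A_72_P637644 gave 0.24 (limma BH p = 0.037) and the remaining ones had BH p of 0.111 and 0.245. By diet the brightest probe was 0.05 (standard error 0.10) without these arrays, but A_72_P641194 was then called as lower in HF pigs at -0.19 (standard error 0.06, limma BH p = 0.0202), where 12.0% of all probes were, so the ENO3 probes differed in whether diet was called. The 8 enzymes that fell with the HF diet were called without these arrays too.

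**Figure D4:**
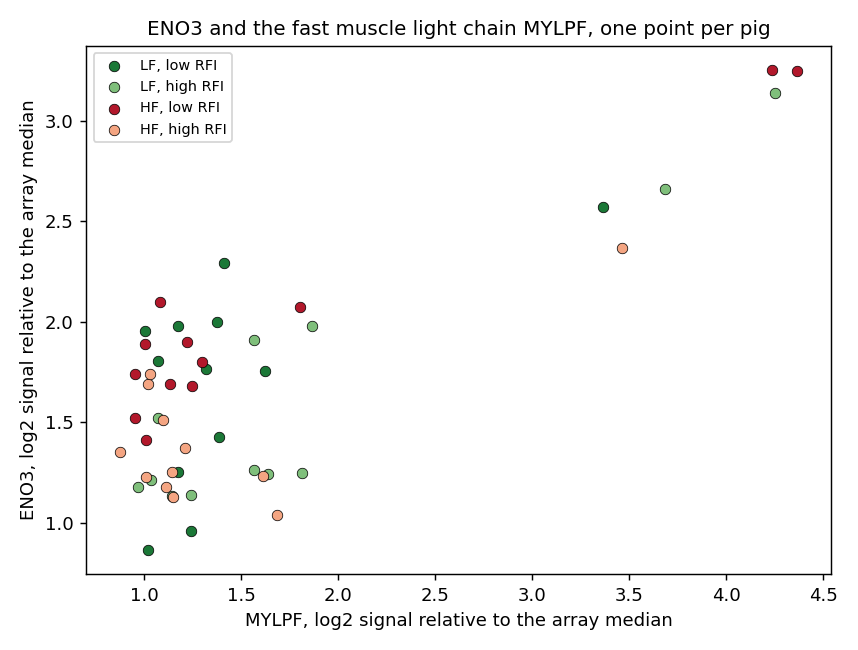
ENO3 (y axis) against the fast muscle light chain MYLPF (x axis), both as log2 signal relative to the array median, with 1 point per pig coloured by diet and line. The 6 pigs at the upper right lie apart from the other 42 on both axes and come from all 4 groups.

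The enzymes were then compared across pigs within groups, by correlating the brightest probes over the 48 pigs after subtracting the mean of each group. All 36 pairs of the 9 genes were tested (two-sided permutation within groups, 100000 resamples, BH over the 36 pairs), and 24 passed at a BH p under 0.05. The 7 enzymes GPI, ALDOA, TPI1, GAPDH, PGK1, ENO1 and PKM2 varied together. All 21 pairs among them passed, with r from 0.36 to 0.88, a median of 0.67 and permutation BH p from 2.77e-05 to 0.0207, and 20 passed with Spearman's rho. ALDOA and ENO1 were the closest pair (r = 0.88, rho = 0.86), followed by ENO1 and PKM2 (r = 0.85, rho = 0.83). GPI and TPI1 were the loosest (r = 0.36, rho = 0.30), and without the 2 pigs farthest from the GPI median r was 0.25; over the 21 pairs r without 2 such pigs lay between 0.25 and 0.87. The values share the centring of their array. The share of passing pairs among other genes is not given here, so these correlations are not shown to be particular to the enzymes.

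HK2, the enzyme with the largest diet difference, had lower correlations with the rest within groups. None of its 8 pairs passed, with r between -0.04 with ENO3 and 0.23 with GAPDH and a smallest permutation BH p of 0.182, although the 2 HK2 probes followed each other (r = 0.94). Without the 2 farthest pigs r of HK2 was 0.31 with GAPDH and 0.28 with TPI1 (0.09 with all pigs), and lay between 0.02 and 0.16 with the other 6. ENO3 was negatively correlated with PGK1 (r = -0.45, permutation BH p = 0.00358), ENO1 (r = -0.40, BH p = 0.0151) and PKM2 (r = -0.47, BH p = 0.00447), with rho of -0.23, -0.23 and -0.35. These relations rested on the arrays high in muscle transcripts, since without them r was 0.12, 0.04 and -0.14 over 42 pigs.

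**Figure D5:**
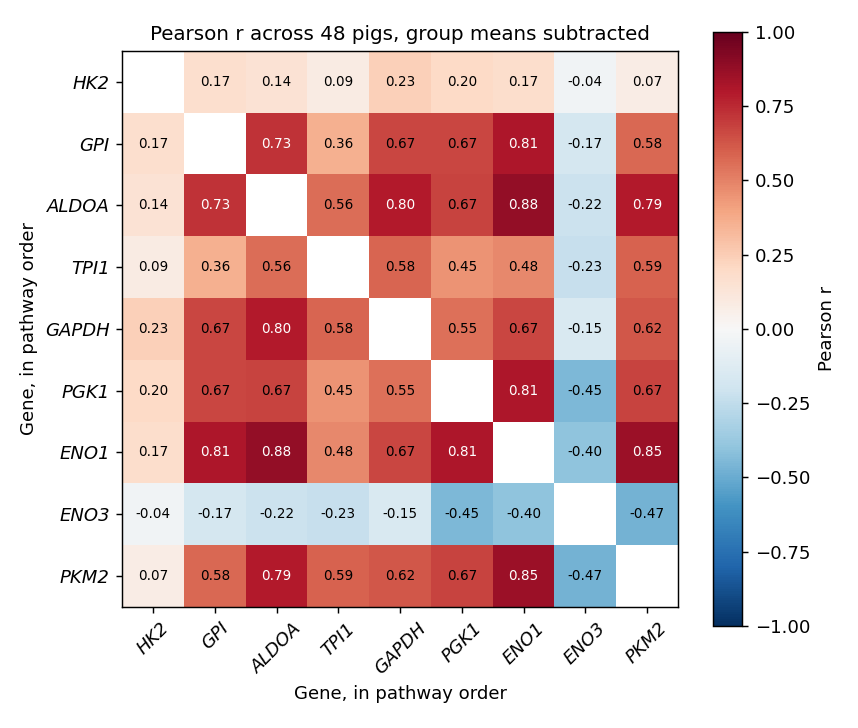
Pearson r between each pair of the 9 enzymes across 48 pigs after subtracting group means, with the genes in pathway order on both axes and r as colour and number. The 7 enzymes from GPI to PKM2 other than ENO3 have r between 0.36 and 0.88 with each other, HK2 has r of at most 0.23 with any, and ENO3 has r below 0 with all.

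Among 9709 other named genes, the 5 whose values were most like those of HK2 by the same within-group r over 48 pigs were NR0B1 (0.90), DNMBP (0.76), PPARD (0.73), TIMM8A (0.72) and TIMM17A (0.71). NR0B1 and PPARD encode nuclear receptors, DNMBP a scaffold protein of the cell cortex, and TIMM8A and TIMM17A parts of the machinery that imports proteins into mitochondria. Their probes shared runs of at most 7 bases with the brightest HK2 probe on either strand. Probes from different places of the same transcript can share as little, so this does not show which transcripts were read. Their HF means differed from their LF means by -0.41, -0.35, -0.67, -0.33 and -0.47, in that order, on the log2 scale. The list was picked by likeness and is a description.

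Around the 10 enzymes, 50 other genes of the pathway and its branches were listed, of which 35 had a tested probe, and diet called 15 of these as lower and 1 as higher (background 14.0% and 8.19% of all probes). Among other isoforms of the same enzymes, 5 of 11 tested genes were lower and 6 were not called (from -0.13 to 0.00), with a median of -0.13. HK1, the hexokinase of most tissues, was -0.61 (standard error 0.11, limma BH p = 3.39e-05), from a median of 7.69 (6.64 to 8.23) in LF pigs to 6.99 (6.33 to 7.45) in HF pigs. PFKM, a subunit of phosphofructokinase, which commits sugar to glycolysis and is not among the 10 enzymes, was -0.40 (standard error 0.07, limma BH p = 2.53e-05) with all 3 of its probes called. GAPDHS, the GAPDH of sperm, was -0.68 (standard error 0.13, limma BH p = 0.00012).

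Among genes that feed, control or leave the pathway, 6 of 18 tested genes were lower, 1 was higher and 11 were not called (from -0.08 to 0.14), with a median of 0.00. The insulin-responsive glucose transporter SLC2A4 (GLUT4) was -0.77 (standard error 0.18, limma BH p = 0.00114), from a median of 7.43 (5.80 to 8.05) in LF pigs to 6.41 (5.20 to 7.67) in HF pigs, and the call was made by 3 of 5 probes. The transporter SLC2A3 (GLUT3) was 0.39 higher (standard error 0.10, limma BH p = 0.00246). LDHA, which reduces pyruvate to lactate, was -0.26, the lactate transporter SLC16A1 was -0.25, GPD1, which makes glycerol phosphate from a triose, was -0.22, and HIF1A, an oxygen-regulated activator of glycolytic genes, was -0.14. Diet called 2 of 3 LDHA probes, 7 of 8 SLC16A1 probes, 3 of 5 GPD1 probes and 2 of 4 HIF1A probes. LDHD, which oxidises D-lactate in mitochondria, had the largest difference of the 35 genes at -1.20 (standard error 0.13, limma BH p = 1.25e-08), from a median of 3.52 (2.55 to 4.18) in LF pigs to 2.33 (1.62 to 3.70) in HF pigs. LDHD and SLC2A3 had 1 tested probe each. Between lines 1 of the 35 genes was called, where 3.22% of all tested probes were. It was FBP2, the fructose bisphosphatase of muscle, 0.64 higher in low RFI pigs (standard error 0.13, limma BH p = 0.00121). FBP2 is named because the count was 1. Without the 6 arrays high in muscle transcripts it was 0.72 higher (standard error 0.13, limma BH p = 0.00102).

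In the pentose phosphate pathway, which branches off after hexokinase and makes the NADPH used in fatty acid synthesis, 4 of 6 tested genes were lower in HF pigs and none was higher, with a median of -0.34. PGD, a dehydrogenase that forms NADPH, was among them at -0.36 (standard error 0.10, limma BH p = 0.00627). TKT at -0.33 and TALDO1 at -0.37, which return carbon to glycolysis, were too, each with all 3 of its probes called. The 2 genes not called lay between -0.02 and 0.12.

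Markers of cell types moved with diet as well. Of 5 macrophage markers 4 were higher in HF pigs (CD163 by 0.70, MRC1 by 0.66, CSF1R by 0.48 and AIF1 by 0.36, limma BH p = 0.026, 0.0178, 0.0121 and 0.022), and their summed level ran from 4.71 to 7.21 in the 2 HF groups and from 4.66 to 6.83 in the 2 LF groups. Of 6 adipocyte markers 1 was lower, CIDEC, a lipid droplet protein, by -0.24 (limma BH p = 0.00887), and the other 5 lay between -0.20 and 0.08. The medians of the adipocyte sum were 12.45 and 12.42 in the HF groups and 12.59 and 12.54 in the LF groups (low and high RFI). Markers of skeletal muscle (7 tested, from -0.33 to -0.04), erythrocytes (3, from -0.02 to 0.17), T and NK cells (4, from -0.06 to 0.21), endothelium (4, from -0.06 to 0.18) and fibroblasts (5, from 0.09 to 0.31) did not pass the test for diet by their brightest probes. Some dimmer marker probes were called by diet. These were 4 of 7 probes of MYH7, 1 of 11 of CKM, 1 of 11 of LUM, 1 of 8 of FABP4 and 1 of 4 of LIPE. Of the adrenal and kidney markers CYP17A1 and SLC12A1 had no probe that passed the filter, and STAR, the only one tested, was 0.17 (limma BH p = 0.698).

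Within groups, the 7 enzymes that varied together followed the adipocyte sum, with r from 0.48 to 0.73 and rho from 0.50 to 0.72 (permutation BH p from 0.00036 to 0.0038 for r and from 0.00036 to 0.00392 for rho, over 72 relations of 9 enzymes with 8 marker sums, of which 16 passed at a BH p under 0.05 for r). Without the 2 pigs farthest from the median of the sum, r lay between 0.49 and 0.71. The relation was not limited to adipocytes. The adrenal marker STAR, the one gene of its sum, passed for r with GPI (0.39), TPI1 (0.49), PGK1 (0.51), ENO1 (0.45) and PKM2 (0.53, beside 0.48 with adipocytes), with rho of 0.42, 0.50, 0.50, 0.36 and 0.48 and permutation BH p for r from 0.00279 to 0.0268; without the 2 farthest pigs r lay between 0.34 and 0.47. GAPDH was lower in pigs with a higher macrophage sum (r = -0.58, rho = -0.56, permutation BH p = 0.00048 and 0.00115) and higher in those with a higher sum for endothelium (r = 0.51, rho = 0.51, BH p = 0.00288 and 0.00387) or for T and NK cells (r = 0.44, rho = 0.37, BH p = 0.00669 and 0.0489), and without the 2 farthest pigs these were -0.57, 0.42 and 0.34. ENO3 passed with the skeletal muscle sum (r = 0.49, rho = 0.35, permutation BH p = 0.00576 and 0.0688), and without the 2 farthest pigs r was 0.35. Signals were summed before taking log2, so 1 bright gene can outweigh the rest of its list. In the T and NK sum this was GNLY (named NKL on the array), with a mean of 8.70 in HF pigs beside 0.98 for CD3D, the next highest. In the skeletal muscle sum it was ACTA1, with 6.12 beside 2.97 for CKM. ACTA1 ran from 5.74 to 6.55 in HF pigs and from 5.85 to 6.69 in LF pigs. MYLPF had a wider range, from 0.88 to 4.36 in HF pigs and from 0.97 to 4.25 in LF pigs. The relations with the T and NK sum therefore rest mostly on GNLY. Which gene carried the relation of ENO3 with the skeletal muscle sum was not tested. HK2 passed with no marker sum for r, at 0.20 with adipocytes and -0.36 with macrophages (permutation BH p = 0.343 and 0.0786), and with fibroblasts for rho alone (rho = -0.39, r = -0.28, permutation BH p = 0.0321 and 0.119). The part of cell type makeup in the diet differences was not tested.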

How the data were processed

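Cy3-labelled RNA from 1 pig was hybridised to each Agilent porcine array. The deposited scanner files hold Feature Extraction's intensity per spot and flags (0 or 1) that mark saturation, lack of uniformity and signal above background. The log2 table was made by the authors in R 2.10.0, who removed spots by saturation, outlier, uniformity and intensity criteria and subtracted the median of each array. Each of its 38142 rows equalled a spot of the scanner files within 1e-06, but only 2 carried the name of that spot, so names and values were taken from the scanner files. The genome build was not given in the sources used here, and no coordinates are printed.

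The median signal of each spot was put on the log2 scale, without background subtraction, and centred on the median of the non-control probes of its array; spots of 1 probe were averaged and spots flagged as not uniform left out (none of a member). The 4 group means were fitted with limma 3.58.1 (lmFit and eBayes) in R 4.3.3 over 45749 probes. In a test on simulated data of the diet comparison, this fit called 86 of 100 probes changed by 0.4 and 98 of 100 changed by 0.8, with 8 false calls. The simulated probes varied independently and no others were changed, whereas 22.2% of all probes were called by diet in the data. These rates therefore need not hold for the data. A gene was represented by its passing probe with the highest mean over 48 arrays. Members and gene lists were chosen with earlier results of these data known. All members are named, as are genes of the other lists called by diet (some are not reported here but are in the counts), and the 5 genes most like HK2. The labels do not say that pigs of a group shared a litter or pen. Alternatives were other scalings (the deposited table, the 75th percentile of the processed signal, normexp with an offset of 50, quantiles, spike-ins), filters, models (two-way ANOVA, slide, scan day or replicate number as a block, no interaction, array weights), scan days alone, thresholds (BH p under 0.05, fold over 1.5), a gene's probes averaged and, added after seeing the data, leaving out 6 arrays. Correlations used numpy 2.4.6 and pandas 2.3.3 in Python 3.11.15, and plots matplotlib 3.10.9. Subcutaneous fat was not analysed here.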

Additional observations from a re-analysis of the deposited data

How the results depend on the processing

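The 8 enzymes called by diet became 5 with normexp and quantiles or with quantiles alone (HK2, ALDOA, GAPDH, PGK1 and ENO1). They became 3 with spike-in centring, 3 on the second scan day alone and 1 (HK2) at a fold over 1.5. The differences of the 8 stayed below 0 in each of these alternatives. Of all 45749 probes, 6395 were called as lower in the main fit, 4416 with normexp and quantiles and 4743 with quantiles alone. With spike-ins 850 were, on the second scan day 3666 and at a fold over 1.5 320. Within the low RFI line, 5 calls became 1 with spike-ins, 0 and 1 on the first and second scan day and 1 at a fold over 1.5. Within the high RFI line 6 became 2, 2, 0 and 1. The shares over all probes within each line are not given here for these alternatives. Without the 6 arrays high in muscle transcripts, which also had the highest ENO3, 1 enzyme (ENO3) was called by line. The 16 other pathway genes called by diet became 8 with spike-ins, 10 and 6 on the first and second scan day and 5 at a fold over 1.5. Their directions under these alternatives are not given here, and with spike-ins 13176 of all probes were called in either direction. The share of lower probes among all called by diet was 63.1%, but 47.9% with the 75th percentile, 48.2% with normexp and quantiles, 48.2% with quantiles and 6.45% with spike-ins, which gave 12326 higher and 850 lower probes. Over all probes, a fold over 1.5 left 459 called by diet instead of 10141, and the first and second scan day alone gave 5056 and 5713. Signs changed for values that did not pass the test: ENO3 by diet was -0.15 on the second scan day and -0.034 as a mean of its probes; TPI1 by line was -0.0628 on the second scan day and -0.0234 without the 6 arrays, ALDOA by line -0.0197 without them, and PKM2 by line 0.0671 on the first scan day and 0.0531 as a mean of its probes. The causes were not tested. With the replicate block, 8 enzymes were called by diet (6976 of all probes were called as lower), 5 and 6 within the low and high RFI lines and none otherwise. The replicate numbers follow the slides. Of 72 same-numbered pairs of pigs from different groups, 38 had a correlation over 0.1 in their deviations from the group means. Their median r was 0.12, beside -0.009 for pairs with other numbers, and 16 of 48 arrays correlated best with their own number. Whether the numbers pair single pigs, apart from the shared slide, was not tested. The number of pairs of enzymes that varied together moved by less than 1.5 times under the alternatives run for it.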
